A study of Homo sapiens with 6 samples.

Results

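Collagens are secreted or membrane-bound proteins in which 3 alpha chains wind into a triple helix, and each alpha chain is encoded by its own COL gene. The collagen alpha-chain genes were followed in U373, a human glioblastoma cell line carrying an inducible syk construct, on 6 Affymetrix Human Genome U95 Av2 arrays. A probe set was included when the platform annotation gave it a single symbol made of COL, a number, the letter A and a number. This rule gave 46 of 12558 probe sets, which stand for 29 of 8226 genes with a single symbol, and 12 of these genes had more than 1 probe set. The classes held 14 probe sets of 7 fibrillar genes, 11 of 8 network genes, 2 of 1 transmembrane gene (COL13A1), 6 of 3 beaded filament genes, 10 of 7 FACIT genes (fibril-associated collagens with interrupted helices), 1 of the anchoring fibril gene COL7A1 and 2 of 2 multiplexin genes.

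Each condition had 1 array. Syk-transfected cells were given ponasterone A (PonA) in ethanol and taken at day 2 and at day 1, left untreated and taken at day 2 and at day 1, or given ethanol alone and taken at day 1; untransfected, untreated cells were taken at day 1. PonA is a steroid that switches on genes under an ecdysone-inducible promoter, and the labels give 10 µM, with hours of treatment stated for the study as a whole and days for each array. Untransfected cells had no PonA array, no ethanol array stood at day 2, and nothing says whether the transfected cells were 1 clone or a pool. The labels do not say whether any cultures were independent, so p-values measure only the spread between these arrays, which may be technical.

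Fibrillar collagens (types I, II, III, V and XI) form the banded fibrils of connective tissue. Type IV chains form the open network of basement membranes, and types VIII and X form hexagonal networks. Type VI forms beaded filaments beside basement membranes and cells, FACIT collagens decorate fibrils, and the transmembrane type XIII sits at cell adhesion sites. In the brain, type IV collagen lies mainly around blood vessels and under the pia.

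Values are MAS5 signals, a single brightness per probe set on a linear scale. A signal under the 40th percentile of its array, here called the floor, was set to that percentile before the log2 scale was taken, and the floors lay between 22.7 and 26.5. Of the 46 collagen probe sets 26 exceeded the floor on all 6 arrays, 10 on 2 to 5, 1 on a single array and 9 on none. The 36 that exceeded it on 2 or more arrays were tested and stand for 25 genes. The remaining 10 included every probe set of COL3A1 (highest signal 2.34), COL4A3 (19.1), COL4A4 (8.21) and COL15A1 (7.70). They also included 1 of 4 COL1A2 probe sets (7.13), 1 of 2 for COL2A1 (28.6), 1 of 2 for COL16A1 (18.5) and 1 of 2 for COL19A1 (12.8). Probes differ in brightness, so no level of expression is read from one probe set against another.

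Between any 2 arrays the log2 signals had a correlation of 0.933 to 0.961 over all probe sets. The geometric mean of the Bio and Cre spike-in probe sets was 271 on the ethanol array and 352 to 501 on the other transfected arrays, against 157 on the untransfected array. The 3' to 5' ratio of beta-actin was 1.20 and 1.21 at day 2, against 0.960 to 0.987 at day 1. Of 10 glial markers 9 had a probe set; GFAP, the intermediate filament of astrocytes, and VIM exceeded the floor on all arrays, and AQP4 was under it on all. Of 8 haematopoietic markers 7 had a probe set and 5 of these were under the floor on all arrays, PTPRC among them. CD3E exceeded it on all 6 arrays, at 58.7 to 83.2, and CD79A on 1. Of 7 epithelial markers EPCAM, KRT5, KRT14 and KRT19 were under the floor on all arrays, while KRT8 and KRT18 exceeded it on all.

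The results on PonA turned on type IV collagen, whose genes lie in head-to-head pairs, and so the bases before the starts of the 2 measured pairs are shown. COL4A5 and COL4A6 start 379 bases apart on chromosome X and run in opposite directions, and COL4A1 and COL4A2 start 126 bases apart on chromosome 13. Where a gene of a pair had more than 1 annotated start, the one nearest its partner was used, and for COL13A1 the first listed. Which start these cells used was not measured. Sequences are from RefSeq, build GRCh38.p14, 5′ to 3′, and end just before the start used. They are the 250 bases before COL4A5 (chrX:108439588-108439837, plus strand), the 250 before COL4A6 (chrX:108439459-108439708, minus strand), the whole interval between COL4A1 and COL4A2 (chr13:110307158-110307283, plus strand), and, for comparison, the 250 bases before COL13A1 (chr10:69801656-69801905, plus strand).
COL4A5: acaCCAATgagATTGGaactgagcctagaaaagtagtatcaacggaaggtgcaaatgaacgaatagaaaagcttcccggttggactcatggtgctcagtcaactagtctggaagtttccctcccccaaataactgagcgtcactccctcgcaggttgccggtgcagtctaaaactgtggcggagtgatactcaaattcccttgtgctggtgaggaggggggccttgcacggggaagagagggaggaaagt
COL4A6: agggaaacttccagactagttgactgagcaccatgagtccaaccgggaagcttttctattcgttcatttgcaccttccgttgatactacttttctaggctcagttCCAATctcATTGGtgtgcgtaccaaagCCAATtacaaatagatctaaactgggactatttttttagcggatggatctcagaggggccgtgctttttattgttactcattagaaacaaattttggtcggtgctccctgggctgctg
COL4A1-COL4A2: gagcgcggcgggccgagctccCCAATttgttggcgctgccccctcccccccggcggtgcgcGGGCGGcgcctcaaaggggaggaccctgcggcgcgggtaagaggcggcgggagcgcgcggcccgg
COL13A1: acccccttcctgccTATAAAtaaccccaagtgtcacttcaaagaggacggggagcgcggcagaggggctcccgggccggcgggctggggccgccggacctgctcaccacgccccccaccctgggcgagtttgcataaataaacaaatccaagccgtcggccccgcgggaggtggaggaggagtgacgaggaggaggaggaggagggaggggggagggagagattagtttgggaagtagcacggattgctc
Capitals mark matches, on either strand, to 4 motifs: CCAAT (the CCAAT box), GGGCGG (the GC box), TATAAA (the TATA box) and AGGTCA (a half-site of RXR and related nuclear receptors). No matches overlapped. The COL4A5 and COL4A6 windows share 121 bases, and the facing CCAAT matches in that stretch are the same bases read on both strands. COL4A6 has 1 further CCAAT match, the COL4A1-COL4A2 interval 1 CCAAT and 1 GGGCGG match, and COL13A1 1 TATAAA match. Of all 35116 promoter windows of 250 bases, 32.0% held CCAAT, 42.6% GGGCGG, 10.7% TATAAA and 12.1% AGGTCA, and of windows cut to 126 bases 21.1% held CCAAT and 34.6% GGGCGG. G and C made up 51.2% of the COL4A5 window, 44.0% of the COL4A6 window, 64.0% of the COL13A1 window and 80.2% of the COL4A1-COL4A2 interval.

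With PonA, COL4A5 and COL4A6 rose together on both days, while COL4A1 and COL4A2 did not pass the test. COL4A5 and COL4A6 encode the alpha5 and alpha6 chains of type IV collagen, which assemble with each other in some basement membranes. COL4A5 (32667_at) gave 170 with PonA against 70.1 untreated at day 2, while at day 1 the PonA array gave 142, the ethanol array 63.6 and the untreated array 54.6. Untransfected cells gave 55.6, so both PonA arrays lay above the 4 others. The log2 PonA effect was 1.27 ± 0.17 (moderated SE), or 2.41-fold (limma, adjusted p = 0.0125).

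The first COL4A6 probe set (39939_at) gave 172 with PonA against 54.0 untreated at day 2. At day 1 it gave 121 with PonA, against 53.0 with ethanol, 43.7 untreated and 96.4 in untransfected cells. The PonA arrays were the highest, and the untransfected array stood between them and the other transfected arrays. The log2 PonA effect was 1.48 ± 0.19 (SE), or 2.78-fold (limma, adjusted p = 0.0106). A second COL4A6 probe set (779_at) exceeded the floor on the PonA arrays alone, at 35.4 at day 2 and 36.3 at day 1. Against the floor of the other array it was at least 1.53-fold higher at day 2 than untreated, and at least 1.43-fold higher at day 1 than with ethanol, with a log2 effect of 0.54 ± 0.16 (SE) that missed the threshold (limma, adjusted p = 0.130); it entered the test only through the PonA arrays.

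**Figure D1:**
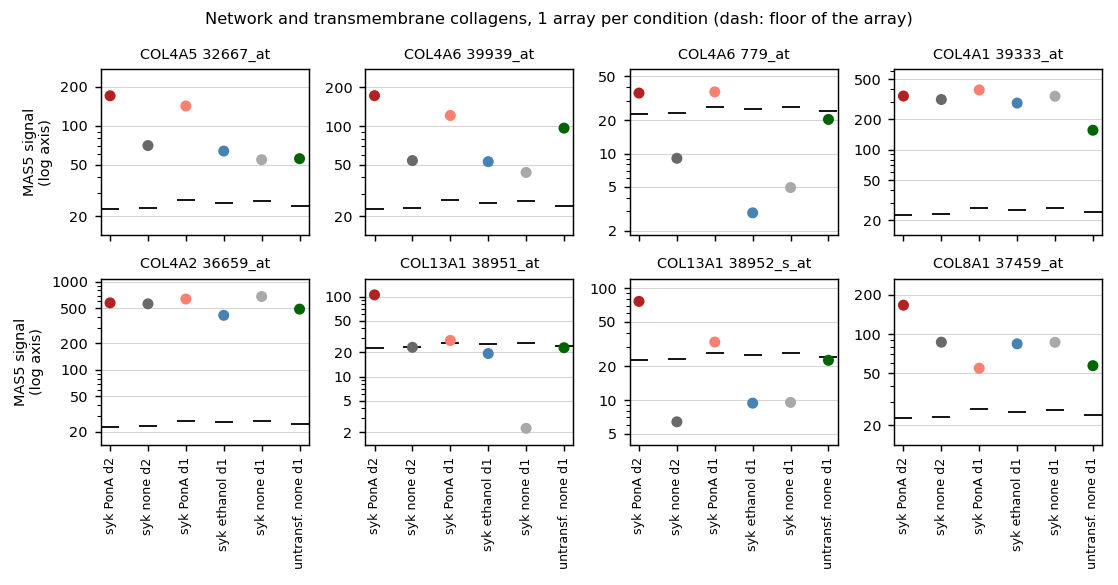
MAS5 signal (log axis) of network and transmembrane collagen probe sets on each of the 6 arrays, 1 point per array, with a dash at the floor of that array. COL4A5 and both COL4A6 probe sets are highest on the 2 PonA arrays, COL4A1 is lowest in untransfected cells at 156, and COL13A1 is highest with PonA at day 2.

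These effects came from an additive limma fit of the 5 transfected arrays (2 PonA arrays and 3 others) with terms for PonA and day, which leaves 2 residual degrees of freedom. Both PonA arrays also had ethanol, as did only the ethanol array among the 3 others, and the fit has no term for the solvent. At day 2 PonA and its solvent cannot be told apart. Of the 36 collagen probe sets tested 2 rose and 0 fell. Over all 7934 probe sets tested 2.70% rose and 2.37% fell, and the 5.56% called among the collagens is near that background. The median log2 effect was 0.14 over the 36 and 0.01 over all. COL4A5 and COL4A6 were also the only collagen probe sets that differed 2-fold or more in a constant direction in all 3 single-array comparisons of PonA (over ethanol and over untreated at day 1, over untreated at day 2), 2 of 36 beside 2.56% of all. Without the PonA array of day 2 or the untreated array of day 2 each lost its call, with adjusted p between 0.0695 and 0.0852 and effects of 1.27 for COL4A5 and 1.33 for COL4A6; COL4A5 lost it also without the PonA array of day 1, at an effect of 1.28 (adjusted p = 0.105). With the floor at the 20th percentile, where more probe sets are tested, both missed the threshold (adjusted p = 0.0715 and 0.0659) at the same effects of 1.27 and 1.48.

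Among the markers of cell types 1 glial and 1 fibroblast marker passed the test for PonA. Over all probe sets tested 2.70% rose and 2.37% fell. Of 8 tested glial markers SLC1A3, a glutamate transporter, rose, with 225 with PonA against 24.0 untreated at day 2, and 193 with PonA against 22.8 with ethanol and 38.8 untreated at day 1. Of 4 tested fibroblast markers PDGFRA, a growth factor receptor, fell, with an effect of -1.17 (limma, adjusted p = 0.0330). Against SLC1A3 ran FABP7, SOX9 and VIM, with effects of -0.27, -0.19 and -0.03, and against PDGFRA ran THY1 with 0.12. The median effect was 0.21 over the tested glial markers and -0.35 over the tested fibroblast markers. The summed signal of the glial list was 11421 and 12092 with PonA, against 10751 to 11688 on the other transfected arrays, and that of the fibroblast list 661 and 752 against 840 to 913. VIM weighed most in the glial sum, at 4919 and 6239 with PonA against 5430 to 6458 on the other transfected arrays. In bulk RNA, fewer cells of a type and less RNA per cell cannot be told apart, and the part of these markers in the collagen values was not tested.

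The other type IV pair gave smaller differences. COL4A1 (39333_at), the alpha1 chain of the common basement membrane network, gave 341 with PonA against 315 untreated at day 2, and 392 with PonA against 290 with ethanol and 339 untreated at day 1. PonA had a log2 effect of 0.23 ± 0.18 on it (SE, adjusted p = 0.551). COL4A2 (36659_at), the alpha2 chain of that network, gave 578 against 564 at day 2, and 639 with PonA against 417 with ethanol and 682 untreated at day 1. Its effect was 0.16 ± 0.25 (SE, adjusted p = 0.782), and its ethanol array was the lowest of the 6.

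The hexagonal network genes did not run the same way on both days. COL8A1 (37459_at), a chain of type VIII collagen of vessel and eye membranes, gave 167 with PonA against 86.7 untreated at day 2. At day 1 it gave 54.8 with PonA, against 84.2 with ethanol and 86.5 untreated, with 57.3 in untransfected cells. PonA cells thus had the highest and the lowest COL8A1 signal of the series, and the effect over both days was 0.04 ± 0.35 (SE, adjusted p = 0.973). It was -0.64 without either array of day 2 and 0.94 without the PonA array of day 1, and did not pass. COL10A1 (38566_at), known from growth plate cartilage, gave 34.6 with PonA against 21.8 untreated at day 2, and 23.9 with PonA against 53.9 with ethanol and 44.7 untreated at day 1. Its lowest values lay under the floor, and its effect was -0.26 ± 0.34 (SE, adjusted p = 0.738), with -0.89 without either array of day 2 and 0.58 without the PonA array of day 1.

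The transmembrane gene COL13A1 was read by 2 probe sets that both had their highest signal with PonA at day 2. The first (38951_at) gave 105 there against 23.2 in untreated cells, which is 4.53-fold. At day 1 it gave 28.3 with PonA, against 19.4 with ethanol and 2.25 untreated, and untransfected cells gave 23.0. The second (38952_s_at) gave 76.3 with PonA against 6.40 untreated at day 2, which is at least 3.29-fold above the floor, and 33.1 with PonA against 9.40 with ethanol and 9.54 untreated at day 1. On both probe sets the PonA arrays were the highest of the 6, and 38952_s_at exceeded the floor on these arrays alone. The log2 PonA effects were 1.01 ± 0.43 (SE, adjusted p = 0.270) and 0.94 ± 0.31 (SE, adjusted p = 0.160), and neither passed. The effects rested on single arrays. Without the PonA array of day 1 the effect of the first was 2.18, which is the difference between the day 2 arrays alone. The only spread then left is that between the ethanol and untreated arrays of day 1. Both gave signals under the floor, so the SE held no spread of measured signal and no p-value is given. Without either array of day 2 the effect of the first was 0.13. The effect of the second was 0.36 without the untreated array of day 2 (adjusted p = 0.711), and without either PonA array it was not tested, since 1 array was then above the floor. This probe set entered the test only through the PonA arrays.

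Among the fibrillar genes none of 11 tested probe sets of 6 genes passed, and their median log2 effect was 0.03, with 6 positive and 5 negative. The median was 0.23 over 7 network probe sets, of which 6 were positive and 2 passed, and 0.97 over the 2 transmembrane ones. Some of these were tested only because PonA brought them above the floor, so the medians describe the probe sets and were not tested against each other.

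COL1A1 (35474_s_at), the alpha1 chain of type I collagen, stood apart from the other fibrillar probe sets through 1 array. At day 1 the PonA array gave 121, the ethanol array 32.5 and the untreated array 41.7, so PonA was 3.72-fold and 2.90-fold higher. At day 2 it gave 47.1 with PonA against 33.4 untreated, and untransfected cells gave 31.7. The log2 effect of 1.19 ± 0.30 (SE) missed the threshold (adjusted p = 0.0830); it was 1.72 and passed without either array of day 2 (adjusted p of 0.0393 and 0.0337), and 1.02 and passed without the ethanol array (adjusted p = 0.0432). Without the PonA array of day 1 it was 0.50 (adjusted p = 0.587). The second COL1A1 probe set (35473_at) gave 35.6 with PonA, 36.9 with ethanol and 18.3 untreated at day 1, the last under the floor, and was under it on both arrays of day 2. PonA was thus at least 1.36-fold higher than untreated but not higher than ethanol, and the effect was 0.10 ± 0.21 (SE, adjusted p = 0.857).

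COL1A2, the alpha2 chain that completes type I collagen, had small PonA effects on its 3 measured probe sets. The probe set 32306_g_at gave 1932 with PonA against 1766 untreated at day 2, and 1716 with PonA against 1653 with ethanol and 1848 untreated at day 1. Its PonA effect was 0.04 ± 0.17 (SE, adjusted p = 0.929), and those of 32305_at and 32307_s_at were 0.06 and -0.06. COL11A1 and COL5A2, chains of the thin fibrils on which others grow, had effects of -0.12 ± 0.20 and -0.13 ± 0.18 (SE). COL2A1, the cartilage collagen (598_at), had one of 0.03 ± 0.17. COL11A2, another type XI chain, had effects of -0.63, -0.14 and 0.20 on 3 dim probe sets; the first passed without the ethanol array, at -0.91 (adjusted p = 0.0244).

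**Figure D2:**
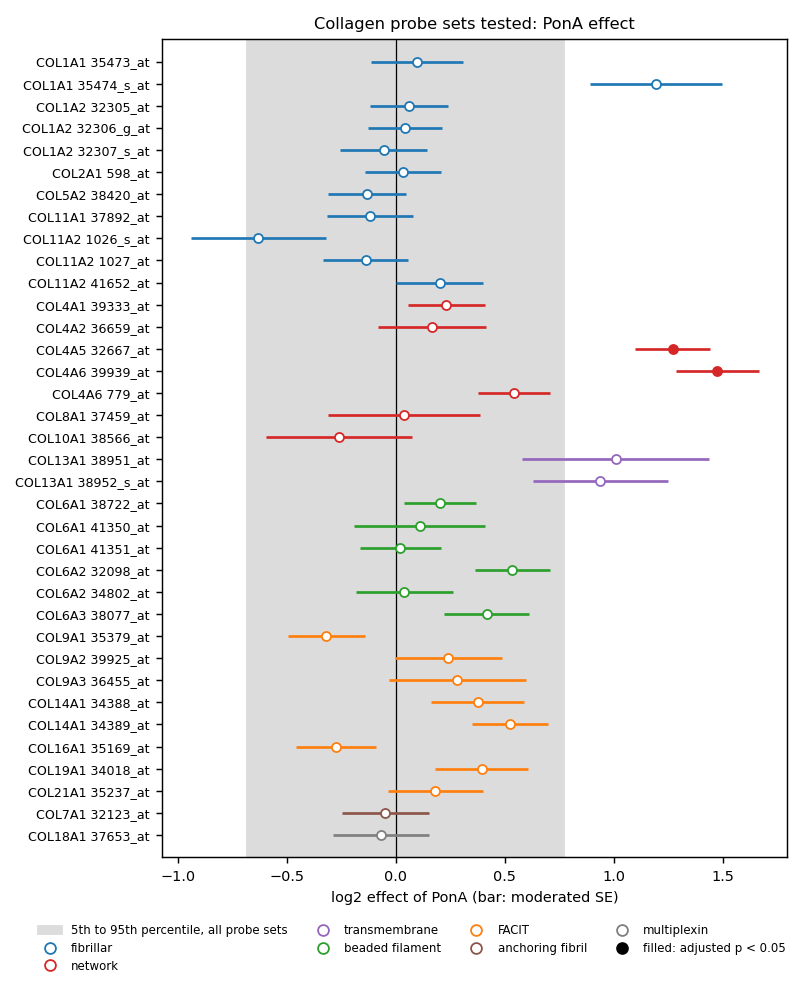
Log2 PonA effect of the 36 tested collagen probe sets (points) with moderated SE (bars), grouped by class, over the range from the 5th to the 95th percentile of all 7934 probe sets (grey). The filled points, COL4A5 at 1.27 and COL4A6 at 1.48, passed the adjusted threshold; COL1A1 at 1.19 and COL13A1 at 1.01 and 0.94 did not.

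The remaining classes held no call for PonA. The 6 beaded filament effects, of 3 genes, ran from 0.02 to 0.53, with a median of 0.16. In single-array comparisons 4 of the 6 were higher with PonA than with ethanol at day 1. Against untreated cells it was 4 of 6 at day 1 and 5 of 6 at day 2. The share of all probe sets with a positive effect was not counted. COL6A3, the long alpha3 chain of type VI collagen (38077_at), gave 349 with PonA against 313 untreated at day 2, and 524 with PonA against 316 with ethanol and 373.1 untreated at day 1, an effect of 0.42 ± 0.19 (SE, adjusted p = 0.313). COL6A2 had effects of 0.53 ± 0.17 (SE, adjusted p = 0.148) on 32098_at and 0.04 ± 0.22 (SE, adjusted p = 0.952) on 34802_at. FACIT effects ran between -0.32 for COL9A1 and 0.52 for COL14A1 (34389_at), with a median of 0.26 over 8 probe sets. The other COL14A1 probe set (34388_at) gave 104.5 with PonA against 70.5 untreated at day 2, and 58.9 with PonA against 42.4 with ethanol and 59.4 untreated at day 1, an effect of 0.37 ± 0.22 (SE). COL16A1 (35169_at), COL19A1 (34018_at) and COL21A1 (35237_at) had effects of -0.28, 0.39 and 0.18 on signals of 72.0 or less. COL7A1 had an effect of -0.05 ± 0.20 and COL18A1, the source of endostatin, one of -0.07 ± 0.22 (SE).

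Whether the PonA effect differed between the days was asked of those 5 arrays by adding an interaction of PonA and day, on 1 residual degree of freedom. The limma fit called 0 of 36 collagen probe sets and 0% of 7934. At an unadjusted p under 0.05 stood 6 of the 36, or 16.7%, beside 4.16% of all. The largest of the 6 terms was that of COL13A1 (38951_at), at 2.05 ± 0.39 (SE, adjusted p = 0.917), toward a larger PonA difference at day 2. The same direction held for COL8A1 with 1.58 ± 0.39 (SE, adjusted p = 0.917), COL10A1 with 1.47, COL13A1 (38952_s_at) with 1.36 and COL6A1 (41350_at) with 1.25. COL1A1 (35474_s_at) ran the other way with -1.22 ± 0.43 (SE). The only spread in this fit is that between the ethanol and untreated arrays of day 1. Both COL13A1 probe sets lay under the floor on these arrays, at 19.4 and 2.25 on 38951_at and 9.40 and 9.54 on 38952_s_at. Their SE thus holds no spread of measured COL13A1 signal. For COL4A5 the term was 0.01 and for COL4A6 (39939_at) 0.34, each under 1 SE of 0.41 and 0.42. Day 2 had no ethanol array, so whatever the solvent does at that day cannot be told apart from this term.

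**Figure D3:**
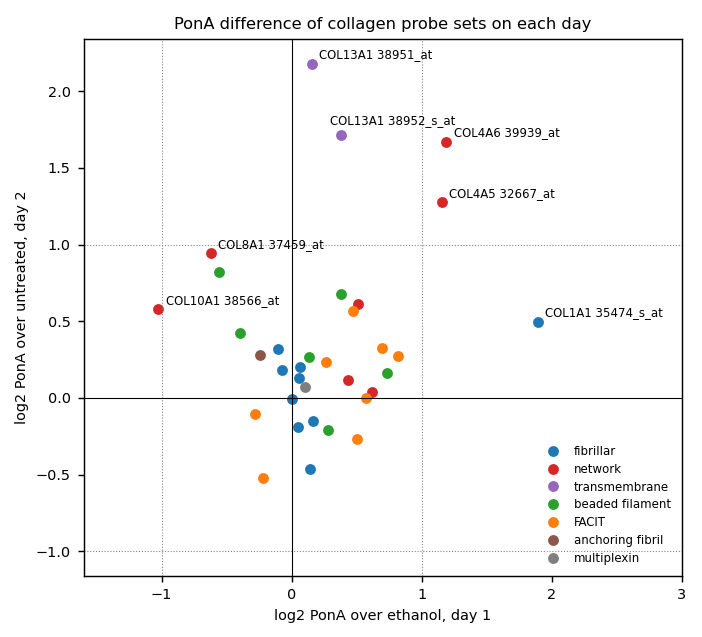
Log2 difference of PonA over untreated at day 2 (vertical) against PonA over ethanol at day 1 (horizontal) for the 34 collagen probe sets above the floor on 1 side or more of both comparisons, which share no array; dotted lines mark 2-fold. COL4A5 and COL4A6 lie beyond 2-fold on both axes, the COL13A1 probe sets at day 2 alone at 2.18 and 1.72, and COL1A1 at day 1 alone at 1.90.

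By the rule of size, 4 of 35 measured collagen probe sets were at least 2-fold apart with PonA at day 2, all higher, beside 8.71% of all probe sets. Against ethanol at day 1 it was 4 of 36, with 3 higher and COL10A1 lower, beside 5.62%. Against untreated cells at day 1 it was 3 of 37, all higher, beside 6.71%.

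Transfected cells had more COL11A1, COL6A3, COL4A1 and COL5A2 signal than untransfected cells on every transfected array, although no collagen passed the test. COL11A1 (37892_at) gave 1151 and 1157 with PonA and untreated at day 2, and 1188, 1184 and 1583 with PonA, with ethanol and untreated at day 1, against 548 in untransfected cells. It was 2.10 to 2.89 times the untransfected value. COL6A3 gave 313 to 524 on the transfected arrays against 138 in untransfected cells, 2.26 to 3.79 times as much. These were the only collagen probe sets with all 5 transfected arrays at least 2-fold from the untransfected array, 2 of 36 beside 1.33% of all probe sets tested. At any size of difference, COL1A1 (35474_s_at), COL11A2 (41652_at), COL6A1 (41351_at), COL9A2 and COL19A1 (34018_at) also lay above it on all 5. Below it on all 5 lay COL1A2 (32307_s_at), COL11A2 (1026_s_at), COL6A1 (38722_at and 41350_at) and COL6A2 (34802_at). The share of all probe sets on 1 side was not counted.

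COL4A1 gave 290 to 392 on the transfected arrays against 156 in untransfected cells, and COL5A2 (38420_at), the alpha2 chain of type V collagen, 623 to 848 against 426. COL4A2, the head-to-head partner of COL4A1, gave 417 to 682 against 491, so its ethanol array lay below the untransfected one. In the other direction COL4A6 (39939_at) gave 43.7 to 54.0 on the transfected arrays without PonA, against 96.4 in untransfected cells. On the PonA arrays it lay above the untransfected level, at 172 and 121. COL4A5 gave 54.6 to 70.1 without PonA against 55.6, so the pair did not part from untransfected cells in the same way.

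The transfection term was fitted with limma over all 6 arrays beside terms for PonA and day. It sets the lone untransfected array against the rest and assumes that this array varies as the others do. Of 36 tested collagen probe sets 0 rose and 0 fell, where 0.161% of 8090 rose and 0.0989% fell. At an unadjusted p under 0.05 were 9 of the 36 (25.0%), beside 14.9% of all. Their log2 effects were 1.38 ± 0.25 (SE, adjusted p = 0.0989) for COL6A3, 1.29 ± 0.25 (adjusted p = 0.111) for COL11A1 and 1.03 ± 0.23 (adjusted p = 0.134) for COL4A1. For COL5A2 the effect was 0.87 ± 0.23 (SE, adjusted p = 0.177), and for COL4A6 (39939_at) it was -1.05 ± 0.24 (SE, adjusted p = 0.149). Without the ethanol array COL6A3 and COL11A1 passed (adjusted p = 0.0346 and 0.0455).

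Probe sets of 1 gene did not agree in this comparison for type VI and type XI collagen. COL6A1, the alpha1 chain of type VI, gave 889 to 1067 on one probe set (38722_at) against 1404 in untransfected cells, and 67.0 to 82.7 on 41351_at against 36.5. The effects were -0.60 ± 0.21 and 1.04 ± 0.24 (SE), and the third COL6A1 probe set (41350_at) had one of -0.77 ± 0.39. COL11A2 had effects of -0.82, 0.19 and 0.90 on its 3 probe sets, all dim. COL9A2, a FACIT chain of cartilage (39925_at), gave 63.6 to 106 against 43.9, an effect of 0.78 ± 0.32 (SE, adjusted p = 0.327). COL1A2 gave 1653 to 1932 on 32306_g_at against 1663, an effect of 0.05 ± 0.22. Its other measured probe sets had effects of -0.11 on 32305_at and -0.38 ± 0.26 (SE) on 32307_s_at. The latter gave 617 to 814 on the transfected arrays against 908, so all of them lay below the untransfected array.

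**Figure D4:**
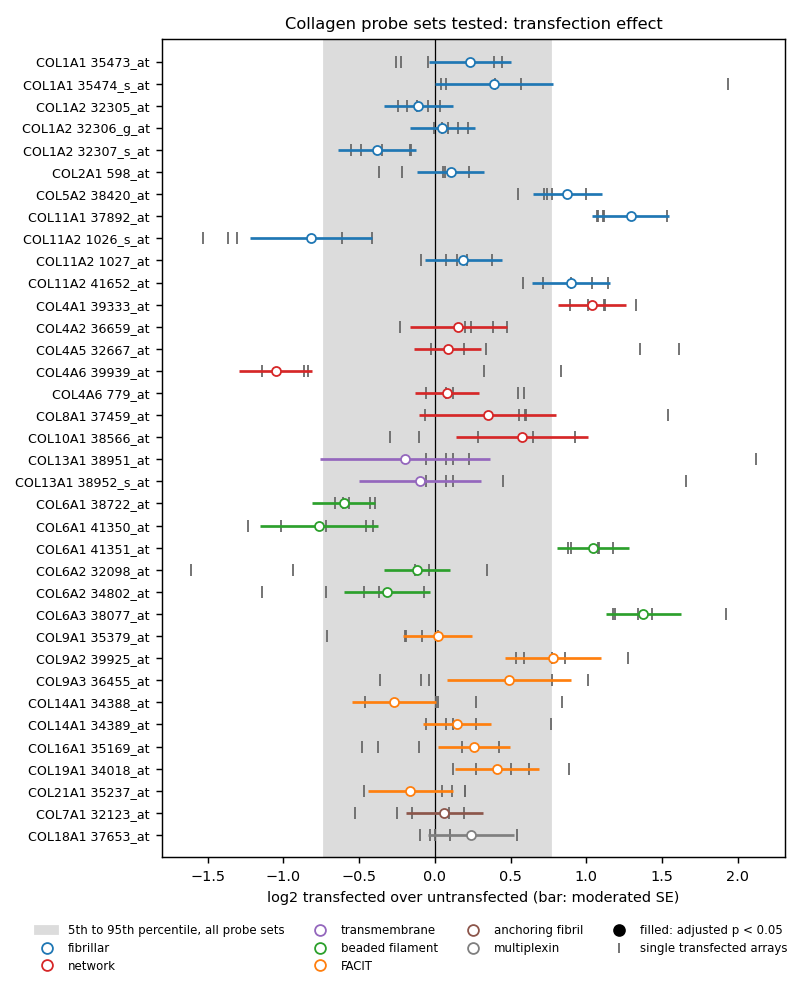
Log2 effect of transfection for the 36 tested collagen probe sets (points, moderated SE as bars), with each of the 5 transfected arrays over the untransfected array as a tick, over the 5th to 95th percentile of all 8090 probe sets (grey). No point is filled, since none passed the threshold. All ticks of COL11A1, COL6A3, COL4A1 and COL5A2, among others, lie right of 0. All ticks of COL6A1 (38722_at) and COL6A2 (34802_at), among others, lie left of 0.

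Comparing the untreated day 1 arrays alone, 6 of 31 measured collagen probe sets were at least 2-fold apart, beside 5.72% of all. COL11A1, COL6A3, COL4A1, COL6A1 (41351_at) and COL9A3, a FACIT chain, were higher in transfected cells and COL4A6 was lower. By class the median difference was 0.14 over 11 fibrillar, 0.53 over 6 network and -0.25 over 6 beaded filament probe sets, beside 0.04 over all. Neither COL13A1 probe set exceeded the floor on either array.

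Other readouts separated the same arrays. GFAP gave 103 to 229 on the transfected arrays against 1533 in untransfected cells, and fell in the transfection fit with a log2 effect of -3.71 (limma, adjusted p = 0.0222). Among the 8 tested glial markers VIM and SOX9 alone had positive effects, at 0.27 and 0.21, and the median of the 8 was -0.35. The glial list summed to 10751 to 12092 on the transfected arrays, against 12594 in untransfected cells, and VIM in that sum was 4919 to 6458 against 5102. Of 8 fibroblast markers 7 had a probe set, and their summed signal was 661 to 913 on the transfected arrays against 1957 in untransfected cells. LUM, FAP and TCF21 were under the floor on all arrays, and THY1 in the sum was 390 to 530 against 1247. With the spike-in level given above, the part of these differences in the collagen values was not tested. Transfection, the choice of transfected cells and anything particular to the single untransfected array cannot be told apart.

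Day 2 was set against day 1 through the day term of the 5-array fit. The limma fit called 0 of 36 collagen probe sets and 0% of all 7934. At an unadjusted p under 0.05 were 6 of the 36 (16.7%), beside 13.2% of all. Of the 6, COL14A1 (34388_at) was higher at day 2, with a log2 effect of 0.64 ± 0.22 (SE). The others were lower at day 2. They were both COL6A2 probe sets, COL9A3, COL16A1 (35169_at) at -0.55 and COL1A1 (35473_at) at -0.52, the last under the floor on both day 2 arrays. The largest difference was that of COL6A2, the alpha2 chain of type VI collagen. COL6A2 (32098_at) gave 119 with PonA and 74.4 untreated at day 2, against 289 with PonA, 222 with ethanol and 208 untreated at day 1, and 228 in untransfected cells. Both day 2 arrays lay below all 4 arrays of day 1. The log2 effect was -1.42 ± 0.17 (SE, adjusted p = 0.143), and without the ethanol array it was -1.38 and passed (adjusted p = 0.0454).

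The second COL6A2 probe set (34802_at) gave 779 and 582 with PonA and untreated at day 2, against 926, 1220 and 993 with PonA, with ethanol and untreated at day 1. Both day 2 values were again the lowest, with an effect of -0.63 ± 0.22 (SE, adjusted p = 0.331). COL6A1 and COL6A3, which join the COL6A2 chain in type VI collagen, had smaller day effects, -0.03 ± 0.16 (SE) on 38722_at and -0.33 ± 0.19. COL9A3 (36455_at) gave 28.1 with PonA and 23.3 untreated at day 2, against 51.4 with PonA, 29.2 with ethanol and 60.4 untreated at day 1, an effect of -0.86 ± 0.31 (SE, adjusted p = 0.345). The beta-actin 3' to 5' ratio, which is given above, also separated the days, and its part in these values was not tested. The median day effect was -0.13 over the collagens and -0.06 over all probe sets, and dividing each array by its median gave -0.005 for the collagens and 0.07 for all.

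**Figure D5:**
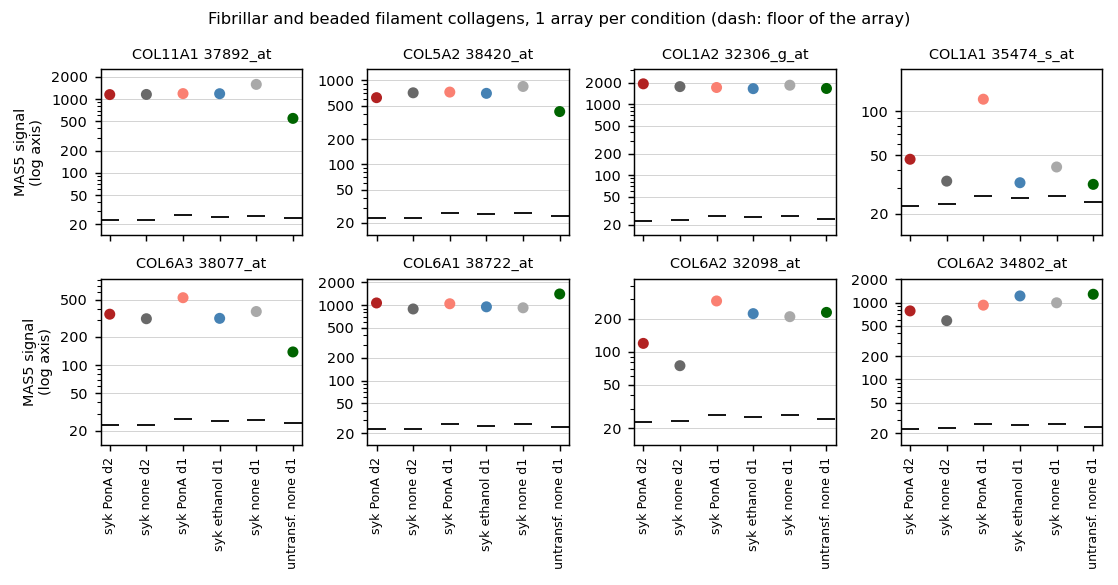
MAS5 signal (log axis) of fibrillar and beaded filament collagen probe sets on each of the 6 arrays, 1 point per array, with a dash at the floor of that array. COL11A1, COL5A2 and COL6A3 are lowest in untransfected cells, both COL6A2 probe sets are lowest on the 2 arrays of day 2, COL1A1 is highest with PonA at day 1 at 121, and COL1A2 (32306_g_at) stays between 1653 and 1932.

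By size, 2 of 32 measured collagen probe sets differed at least 2-fold between the untreated arrays of day 2 and day 1, COL6A2 (32098_at) and COL9A3, both lower, beside 3.19% of all. With PonA it was 5 of 36, beside 2.93%. COL8A1 and both COL13A1 probe sets were higher at day 2, by 3.04-fold, 3.72-fold and 2.31-fold, and COL6A2 (32098_at) and COL1A1 (35474_s_at) were lower.

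Ethanol alone against no treatment at day 1 left the collagens close together. Of 32 measured probe sets 1 was at least 2-fold apart, COL9A3 at 29.2 with ethanol against 60.4 untreated, beside 2.18% of all. The median log2 difference was -0.13 over the collagens and -0.01 over all, and 13 of the 32 were higher with ethanol. COL11A2 (1026_s_at) gave 20.2 with ethanol, under the floor, against 49.3 untreated, at least 1.94-fold lower. COL4A5 and COL4A6 (39939_at) differed by 0.22 and 0.28, against PonA effects of 1.27 and 1.48, and COL4A2 by -0.71. The ethanol array had the lowest spike-in level among transfected arrays, and its part in these differences was not tested.

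The genes that modify, cut, bind and degrade collagen chains were counted in 5 lists. Each gene was represented by 1 probe set, the one with the highest mean signal, and any other probe sets of these genes were left out. Of 18 genes of chain modification and folding 11 had a probe set and 10 were tested; with PonA 0 rose and 0 fell, and their median effect was 0.03. PLOD2, a lysyl hydroxylase that prepares chains for crosslinks, gave 1340 with PonA against 700 untreated at day 2, and 1369 with PonA against 806 with ethanol and 870 untreated at day 1. Its log2 effect of 0.81 ± 0.17 (SE) was the largest of the list and missed the threshold (limma, adjusted p = 0.0512).

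Among 13 genes of propeptide cleavage and crosslinking 5 were tested and 0 passed for PonA. LOXL1, a lysyl oxidase, had the largest effect at 0.70 ± 0.27 (SE, adjusted p = 0.214). Of 10 receptor genes 5 were tested, and the largest was DDR2, a tyrosine kinase receptor for fibrillar collagen, with 0.69 ± 0.20 (SE, adjusted p = 0.114). Of 14 fibril-binding matrix genes 8 were tested, led by THBS1, the matricellular thrombospondin, with 1.10 ± 0.35 (SE, adjusted p = 0.146). Of 8 collagenase genes 3 were tested; MMP14, a membrane-bound collagenase, had the largest effect at 0.51 ± 0.17 (SE, adjusted p = 0.164). None of the 5 lists held a call for PonA, day or transfection, beside the shares of all probe sets given above.

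In the transfection fit these lists had positive medians, 0.67 for chain modification, 0.51 for cleavage and crosslinking, 0.29 for receptors, 0.80 for fibril-binding proteins and 1.04 for collagenases, beside 0.05 over all 8090 probe sets. Unlike the probe sets of the lists, the 8090 were not picked by brightness within a gene. P4HA1, a proline hydroxylase subunit, gave 1208 to 1643 on the transfected arrays against 599 in untransfected cells, an effect of 1.30 (adjusted p = 0.103). MMP2, a gelatinase that cleaves type IV collagen, gave 66.8 to 132 against 45.2, an effect of 1.13 (adjusted p = 0.110). On both genes all transfected arrays lay above the untransfected one. The largest effects of the other lists were 0.85 for BMP1, a procollagen proteinase, 0.59 for ITGB1, the integrin beta1 subunit, and 0.93 for FN1, fibronectin, and none passed.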

How the data were processed

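Total RNA of 6 U373 cultures was profiled on Affymetrix Human Genome U95 Av2 arrays. The deposited intensity values are MAS5 signals, per the submitters' processing notes; the MAS5 version and detection calls are not given in the sources used here. Per array the mean without the lowest and highest 2% of values was 150.07 to 150.08, so the deposited signals share 1 scale and were used as they are. The 67 control probe sets were left out of the tests. Symbols came from the platform annotation, and all 46 collagen probe sets matched a RefSeq gene of GRCh38.p14 with the same symbol.

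Differences were tested with limma 3.58.1 (R 4.3.3, lmFit and eBayes) across all probe sets that exceeded the floor on 2 or more arrays of the fit, with Benjamini-Hochberg adjustment over all of them and a threshold of 0.05. The PonA and day fit had 2 residual and 4.48 prior degrees of freedom, and the transfection fit 2 and 4.34. The fits were tested on simulated data. Where 1 array is set against 1 other there is no replicate check, so no p-value is given; there a difference of at least 2-fold with at least 1 side above the floor was counted, and a fold with 1 side under the floor is a lower bound. Named were all collagen probe sets that exceeded the floor on 2 or more arrays and, of each list on collagen handling, the genes that passed and the largest PonA and transfection effects. The members and lists were chosen with earlier results of these data known. Alternatives were a floor at the 20th percentile, log2(signal + 16) without a floor, quantile normalization, division by the array median, no filter and leaving out each array.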

Additional observations from a re-analysis of the deposited data

How the results depend on the processing

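The count of collagen probe sets called for PonA was 2, and also 2 with quantile normalization and with arrays divided by their median. It was 1 with the floor at the 20th percentile, 4 with log2(signal + 16) and 0 with no filter on low values; the 1 was COL4A6 (779_at), and the 4 include it and COL13A1 (38952_s_at), which both exceeded the floor on the PonA arrays alone. Leaving out 1 array at a time gave 1 to 4 for PonA, 0 to 1 for day and 0 to 2 for transfection, with the highest counts without the ethanol array. The PonA-by-day term called 4 with no filter and 0 under the other processing alternatives; the causes were not tested. Over all probe sets the PonA calls were 402, against 107 with the 20th percentile, 29 with no filter and 111 to 725 with 1 array left out. The transfection calls were 21, against 46 with log2(signal + 16), 7 with quantile normalization, 0 with the 20th percentile or no filter and 24 to 99 with 1 array left out. The day term called up to 16 and the PonA-by-day term up to 86. The single collagen effects of PonA, day and transfection were compared under the alternatives, the PonA-by-day term not counted. Of these, 1034 kept their side of the threshold, 9 lost a call, 11 gained one and 0 turned direction with a call. Nearly all of the 1034 had no call in the main fits. Those fits called only 2 collagen probe sets, COL4A5 and the brighter COL4A6 probe set for PonA, and all 9 lost calls were theirs. Both lost the call with the floor at the 20th percentile, with no filter and without either array of day 2. COL4A5 lost it also without the PonA array of day 1. The PonA fit sets arrays of the same day against each other through its day term, and no replicate numbers pair them further. The arrays' number limits the precision.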
